A study of Rattus norvegicus with 33 samples.

Results

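The cell cycle and proliferation genes are a list of 58 rat genes that run the division of a cell, from entry into the cycle through DNA replication to the separation of the daughter cells. Members were taken by gene symbol from the annotation of the Illumina Rat Ref-12 BeadChip, a microarray on which beads carry probes for single transcripts. Of the 58 genes, 49 had a probe with their symbol, and 38 of these passed the detection filter, which kept a probe if it was above the negative control beads (detection p-value under 0.05) on 75% or more of the arrays in any of the groups. The filter kept 12029 of the 22523 probes on the array, with symbols for 8526 genes. Only 18 of the 38 genes passed in every group of rats. The other 20 passed in some groups only, and a dim gene could pass through the very group in which it was high, so that counts are also given for the 18 genes and for all 49.

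RNA came from the dorsal root ganglia (DRG) of 13-week-old Sasco/Sprague-Dawley rats that had undergone surgery beside the lumbar spine, and 33 arrays in 9 groups were measured. The rhBMP-2/ACS groups received an absorbable collagen sponge (ACS) soaked in recombinant human bone morphogenetic protein-2, the vehicle/ACS groups a sponge soaked in the vehicle alone, and the no sponge groups the incisions without an implant. DRG were taken at 1, 3 or 7 days post-surgery (dps), with 4 arrays per group at 1 and 7 dps and 3 at 3 dps. All rats therefore carried a wound, and no group without surgery was measured. One rat per array is taken from the study's methods, which do not describe the no sponge arrays at 7 dps, and if arrays shared a rat the p-values would measure technical spread only. The ganglion holds the cell bodies of sensory neurons, and 12 of 15 listed sensory neuron markers passed the filter, with a mean log2 intensity of 12.31 ± 0.02 (SD, n = 4) in no sponge rats at 7 dps.

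A dividing cell passes through growth (G1), DNA replication (S) and mitosis (M), each driven by a cyclin bound to a cyclin-dependent kinase. Cyclin D1 with Cdk4 opens the cycle, the Mcm proteins license and unwind DNA, and cyclin B with Cdk1 starts mitosis, which kinesins, the spindle and the chromosomal passenger complex complete. Adult sensory neurons do not divide, while satellite glia, Schwann cells, fibroblasts, endothelial cells and macrophages of the ganglion can. Most mitotic genes are transcribed only in dividing cells, whereas Pcna, Stmn1 and the D cyclins are also expressed in cells outside the cycle. In a whole ganglion, more cells of a dividing type and more RNA per cell cannot be told apart.

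The genes were compared between treatments within each day on log2 intensity, by limma with the Benjamini-Hochberg adjustment over all 12029 kept probes and a threshold of 0.05. None of the 38 genes differed between any pair of treatments at 1 dps, where 0% of all kept probes passed, and 0, 0 and 2 genes had an unadjusted p under 0.05 for rhBMP-2/ACS against vehicle/ACS, vehicle/ACS against no sponge and rhBMP-2/ACS against no sponge, beside 3.79%, 3.43% and 6.24% of all kept probes. At 3 dps 6 genes were higher in rhBMP-2/ACS than in vehicle/ACS rats, beside 5.98% of all kept probes. Against no sponge rats 8 were higher with rhBMP-2/ACS, beside 4.21%. Without rhBMP-2/ACS replicate 3 these counts were 0 and 1. At 7 dps 25 genes were higher in vehicle/ACS than in no sponge rats, beside 6.22% of all kept probes. In rhBMP-2/ACS rats 13 were higher than in no sponge rats, beside 2.59%. In the comparisons of treatments within a day, no gene of the 38 was lower at the threshold. The 3 comparisons of a day share arrays, so that their counts are not independent of each other.

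**Figure D1:**
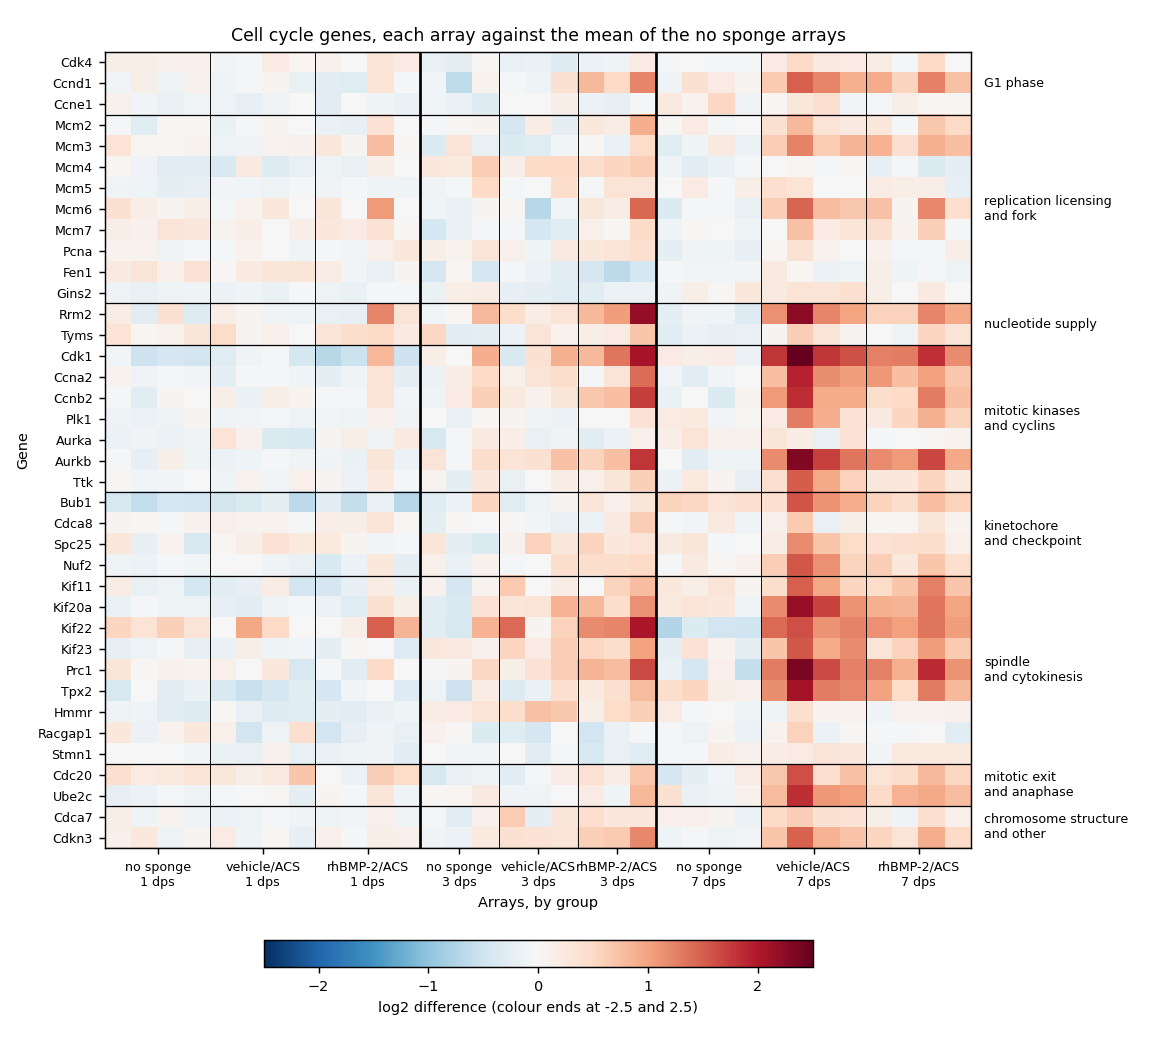
Log2 intensity of the 38 genes past the detection filter (rows, grouped by role) on each of the 33 arrays (columns, grouped by treatment and days post-surgery), shown as the difference from the mean of the gene over the 11 no sponge arrays. Red cells, which are higher, gather in the vehicle/ACS and rhBMP-2/ACS arrays at 7 dps and in the rhBMP-2/ACS arrays at 3 dps, where replicate 3 is the reddest.

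The largest shift lay between vehicle/ACS and no sponge rats at 7 dps. The 25 higher genes were 65.8% of the 38, beside 6.22% of all kept probes that were higher and 3.96% that were lower. The median log2 difference was 0.62 over the 38 genes and -0.04 over all kept probes. Among the 18 genes detected in every group 10 were higher, beside 6.38% of the probes detected in every group, and in a fit of all 22523 probes 23 of the 49 genes were higher, beside 2.96% of all probes. Groups did not overlap for 25 of the 38 genes with the vehicle/ACS arrays higher and for 0 with them lower, beside 8.47% of kept probes that separated upward and 8.61% that separated downward. The count was lower with another statistic and another normalization, which were changed together. A t statistic with each probe's spread taken from the compared arrays alone gave 19 genes at the methods' fold and unadjusted p limits. Of kept probes 2.81% passed these limits. After adjustment the t statistic gave 1 gene, beside 1.69%. The study's methods name a marker selection module and the limits, but no statistic.

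Of the mitotic kinases and cyclins, 6 of 7 were higher in vehicle/ACS than in no sponge rats at 7 dps, beside 6.22% of all kept probes. Their median log2 difference was 1.30. Of the 9 with a probe, 7 passed the filter and only 1 was detected in every group. The others could pass the filter through a group in which they were high. Cdk1, the kinase that starts mitosis, had log2 intensities of 5.57, 5.50, 5.55 and 5.21 on the no sponge arrays and of 7.15, 8.21, 7.14 and 6.95 on the vehicle/ACS arrays. The lowest vehicle/ACS array lay above the highest no sponge array by more than the whole range of the no sponge group. The difference was 3.75-fold (log2 1.91 ± 0.30 SE, limma adjusted p = 7.59e-05). Ccnb2, a cyclin B that binds Cdk1, had values of 6.25, 6.42, 6.07 and 6.47 without a sponge and of 7.48, 8.27, 7.34 and 7.34 with vehicle/ACS. Its groups were again separate, by 2.47-fold (log2 1.30 ± 0.20 SE, limma adjusted p = 7.85e-05).

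Aurkb, the kinase of the chromosomal passenger complex, was detected on 0 of 4 no sponge arrays at 7 dps and on 4 of 4 vehicle/ACS arrays. Its measured log2 intensities were 4.77, 4.50, 4.65 and 4.65 without a sponge and 5.95, 7.09, 6.48 and 6.11 with vehicle/ACS. Because the no sponge values were not above background, the difference is a bound, at least 2.66-fold higher with vehicle/ACS (limma adjusted p = 1.34e-06), taken against the dimmest signal that each array detected. Ccna2, the cyclin A of S phase and early mitosis, was likewise detected on 0 of 4 no sponge arrays (4.76, 4.58, 4.76 and 4.82) and on 4 of 4 vehicle/ACS arrays (5.60, 6.76, 5.99 and 5.87). It was at least 2.08-fold higher with vehicle/ACS (limma adjusted p = 9.69e-05). The mitotic kinases Plk1 and Ttk, also detected on 0 of 4 no sponge arrays, were at least 1.22-fold (limma adjusted p = 0.0144) and 1.51-fold (adjusted p = 0.000466) higher. Aurka, which acts at the spindle poles, had a log2 difference of -0.01 (adjusted p = 0.971) and was the only measured gene of this role that did not pass.

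Of the spindle and cytokinesis genes, 6 of 9 were higher in vehicle/ACS than in no sponge rats at 7 dps, beside 6.22% of all kept probes. Of the 11 with a probe, 9 passed the filter and 6 were detected in every group. Prc1, which bundles microtubules at the midzone of the spindle, had log2 intensities of 5.49, 5.21, 5.78 and 5.06 without a sponge and of 6.94, 8.01, 7.31 and 6.92 with vehicle/ACS. All 8 values were above background and the groups lay apart, by 3.75-fold (log2 1.91 ± 0.23 SE, limma adjusted p = 1.78e-06). Kif22, a kinesin that binds chromosomes, had values of 7.25, 7.64, 7.50 and 7.49 without a sponge and of 9.39, 9.58, 9.10 and 9.21 with vehicle/ACS. The arrays of each group lay close together and far from those of the other, and the difference was 3.60-fold (log2 1.85 ± 0.28 SE, limma adjusted p = 5.65e-05). In no sponge rats the Kif22 mean was 8.43 ± 0.14 (SD, n = 4) at 1 dps, 8.05 ± 0.70 (SD, n = 3) at 3 dps and 7.47 ± 0.16 (SD, n = 4) at 7 dps, so that the comparator at 7 dps was the lowest of the 3 days.

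The kinesins Kif20a and Kif23 work at the cleavage furrow and the midbody, where daughter cells part. Kif20a stood at 5.18, 5.27, 5.21 and 4.85 without a sponge and at 6.12, 7.13, 6.64 and 6.06 with vehicle/ACS at 7 dps, with no overlap, a difference of 2.56-fold (limma adjusted p = 2.70e-05). Kif23 stood at 4.65, 5.25, 4.96 and 4.64 against 5.57, 6.43, 5.81 and 6.05, a difference of 2.13-fold (limma adjusted p = 3.89e-05), also without overlap. Kif20a was detected on 20 and Kif23 on 17 of the 33 arrays. On no sponge replicates 1 and 4 Kif23 lay below Ccna2, which was not detected there, so that its fold includes signal not above background. Tpx2, which activates Aurka on the spindle, stood at 5.77, 5.86, 5.49 and 5.44 against 6.48, 7.41, 6.60 and 6.52, a difference of 2.16-fold (limma adjusted p = 0.000267). Kif11, the motor that pushes the spindle poles apart, was higher by 0.66 on the log2 scale (adjusted p = 0.0406). The 3 genes of this role that did not pass were Hmmr (log2 difference 0.10), Racgap1 (0.20) and Stmn1 (0.19), of which Stmn1 encodes a microtubule-destabilizing protein that neurons also express.

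The 250 bases upstream of the transcription start are printed for 5 genes that were higher at 7 dps or at both later days and for Mcm2, which was higher at 3 dps only, to show where the motifs of cell cycle promoters lie in single genes of both kinds. Sequences are from RefSeq on build GRCr8, read 5′ to 3′ on the strand of the gene, and capitals mark 3 motifs of cell cycle promoters, searched on both strands: the CHR (TTTGAA or TTCGAA), the CCAAT box (CCAAT), and E2F words (TTTCGCGC, TTTGGCGC, TTTCCCGC or TTTGCCGC), which overlap none of the other motifs in these windows. The windows lie at chr20:19265043-19265292 (Cdk1, plus strand), chr8:79981659-79981908 (Ccnb2, minus strand), chr1:143659231-143659480 (Prc1, plus strand), chr1:191080879-191081128 (Kif22, minus strand), chr8:71320585-71320834 (Kif23, minus strand) and chr4:122918095-122918344 (Mcm2, minus strand).
Cdk1: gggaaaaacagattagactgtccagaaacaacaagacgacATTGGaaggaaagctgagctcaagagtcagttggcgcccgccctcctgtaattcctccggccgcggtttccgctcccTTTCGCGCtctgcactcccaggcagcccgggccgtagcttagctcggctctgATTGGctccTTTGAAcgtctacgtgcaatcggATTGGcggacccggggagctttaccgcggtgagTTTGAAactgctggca
Ccnb2: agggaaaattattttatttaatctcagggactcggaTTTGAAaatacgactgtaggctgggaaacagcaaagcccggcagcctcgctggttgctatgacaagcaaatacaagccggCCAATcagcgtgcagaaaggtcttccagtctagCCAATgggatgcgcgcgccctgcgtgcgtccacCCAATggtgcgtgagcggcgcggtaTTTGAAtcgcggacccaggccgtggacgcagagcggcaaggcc
Prc1: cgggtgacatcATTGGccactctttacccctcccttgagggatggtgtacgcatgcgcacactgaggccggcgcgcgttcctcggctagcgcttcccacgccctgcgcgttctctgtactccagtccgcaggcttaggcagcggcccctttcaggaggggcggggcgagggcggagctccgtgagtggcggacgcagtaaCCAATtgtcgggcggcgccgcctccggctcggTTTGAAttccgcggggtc
Kif22: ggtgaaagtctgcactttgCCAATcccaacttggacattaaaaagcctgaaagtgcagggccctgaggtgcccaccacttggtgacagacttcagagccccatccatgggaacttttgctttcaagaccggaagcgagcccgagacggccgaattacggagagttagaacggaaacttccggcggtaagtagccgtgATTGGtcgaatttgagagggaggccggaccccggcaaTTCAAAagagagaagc
Kif23: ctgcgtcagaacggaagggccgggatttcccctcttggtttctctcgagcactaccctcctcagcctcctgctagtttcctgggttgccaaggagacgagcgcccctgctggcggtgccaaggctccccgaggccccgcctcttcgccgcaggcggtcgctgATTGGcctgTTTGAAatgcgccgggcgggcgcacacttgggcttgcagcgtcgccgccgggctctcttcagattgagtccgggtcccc
Mcm2: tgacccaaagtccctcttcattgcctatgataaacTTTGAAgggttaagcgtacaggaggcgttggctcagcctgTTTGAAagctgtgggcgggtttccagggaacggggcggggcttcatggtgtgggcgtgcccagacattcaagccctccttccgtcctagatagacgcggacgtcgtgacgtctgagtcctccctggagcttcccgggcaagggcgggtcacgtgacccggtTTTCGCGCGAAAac
In Cdk1 the nearest CHR starts 16 bases before the transcription start and the nearest CCAAT box 49, in Prc1 18 and 50, and in Kif22 16 and 53. In Ccnb2 they start 43 and 68 bases before it and in Kif23 79 and 88, so that the 5 genes do not share 1 arrangement. The Mcm2 window holds no CCAAT box, and its E2F words start 14 and 10 bases before the transcription start, as a palindrome read on both strands. Mcm2 does not stand for the replication genes in this, since the 300-base windows of Mcm3, Mcm5, Mcm6 and Mcm7 held 3, 3, 2 and 3 CCAAT boxes and those of Pcna and Gins2 held 1 each. RefSeq windows of 300 bases (250 before to 50 after the start) were found for 48 of the 58 genes. A CHR was found in 26 of these 48 (54.2%), beside 19.7% of the 33469 promoters in the table, and a CCAAT box in 34 (70.8%), beside 37.5%. Of the genes higher in vehicle/ACS than in no sponge rats at 7 dps, 12 of 19 with a window held a CHR and 4 of 19 an E2F word, against 4 of 11 and 5 of 11 of the measured genes that did not pass. An E2F word was found in 2.14% of all promoters. These matches describe letters and were not tested as sites.

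Of the genes that supply and copy DNA, 1 of 2 for nucleotide supply and 3 of 9 for replication were higher in vehicle/ACS than in no sponge rats at 7 dps. Of all kept probes 6.22% were higher. Of the 2 and 9 measured genes, 0 and 6 were detected in every group. Rrm2, the regulated subunit of ribonucleotide reductase, which makes deoxynucleotides, had log2 intensities of 4.98, 5.12, 5.09 and 4.87 without a sponge and of 6.34, 7.44, 6.43 and 6.19 with vehicle/ACS. The groups were separate, by 3.00-fold (log2 1.59 ± 0.28 SE, limma adjusted p = 0.000373). Rrm2 was detected on 26 of the 33 arrays, and its low no sponge values may include signal not above background. Tyms, which makes thymidylate and was detected on 0 of 4 no sponge arrays, did not pass (limma adjusted p = 0.0669). The replication genes that passed by limma were Mcm6 (log2 difference 1.02, adjusted p = 0.00626) and Mcm3 (0.92, adjusted p = 0.000434) of the replicative helicase and Pcna, the sliding clamp of DNA polymerase. Mcm3 was detected on 14 of the 33 arrays and had a no sponge mean of 4.79, so that its difference may include signal not above background. The other helicase subunits did not pass, with log2 differences of 0.38 for Mcm2, 0.36 for Mcm7, 0.16 for Mcm4 and 0.12 for Mcm5. Pcna, a bright probe on every array, stood at 10.63, 10.76, 10.75 and 10.65 without a sponge and at 10.89, 11.21, 10.94 and 10.86 with vehicle/ACS. Its groups did not overlap, but the difference was only 1.21-fold (log2 0.28 ± 0.08 SE, limma adjusted p = 0.0261). It did not pass without vehicle/ACS replicate 2 (adjusted p = 0.145).

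Of the G1 genes, Ccnd1 and Cdk4 passed at 7 dps and Ccne1 (log2 difference -0.02) did not. Ccnd1 (cyclin D1), which growth factors induce at the entry into the cycle, had log2 intensities of 9.57, 10.03, 9.85 and 9.72 without a sponge and of 10.31, 11.14, 10.87 and 10.54 with vehicle/ACS. The groups did not overlap, and the difference was 1.89-fold (log2 0.92 ± 0.18 SE, limma adjusted p = 0.000867). Cdk4, its kinase partner, was higher by 0.31 on the log2 scale (adjusted p = 0.0428).

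Regulators of chromosome attachment and of mitotic exit were higher with vehicle/ACS as well. Nuf2 of the outer kinetochore (log2 difference 0.88, adjusted p = 0.000333), the checkpoint kinase Bub1 (0.55, adjusted p = 0.0393) and Spc25, a partner of Nuf2 (0.51, adjusted p = 0.0499), passed by limma, the last of them narrowly. Nuf2 was detected on 14 of the 33 arrays, so that its difference may include signal not above background. Cdca8, which recruits Aurkb to centromeres, had values of 6.24, 6.23, 6.53 and 6.20 without a sponge and of 6.42, 6.95, 6.12 and 6.44 with vehicle/ACS. These overlapped and did not pass (log2 difference 0.18 ± 0.14 SE, limma adjusted p = 0.447). Ube2c, the ubiquitin-conjugating enzyme of the anaphase-promoting complex, had values of 5.18, 4.63, 4.71 and 4.90 against 5.58, 6.64, 5.89 and 5.82, and was detected on 1 of 4 no sponge arrays and on 4 of 4 vehicle/ACS arrays. Its difference was 2.19-fold (limma adjusted p = 5.34e-05). Cdc20, an activator of the same complex, stood at 5.001, 5.20, 5.35 and 5.62 against 6.09, 7.03, 5.85 and 6.15, with no overlap and a difference of 1.98-fold (limma adjusted p = 0.000997).

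Cdkn3, a phosphatase that acts on cyclin-dependent kinases, had log2 intensities of 5.78, 5.83, 5.74 and 5.80 without a sponge and of 6.58, 7.34, 6.74 and 6.59 with vehicle/ACS at 7 dps. It was detected on all arrays of both groups and was 2.04-fold higher with vehicle/ACS (log2 1.03 ± 0.15 SE, limma adjusted p = 2.93e-05). Cdca7, a chromatin regulator detected on 14 of the 33 arrays, was higher by 0.42 on the log2 scale (limma adjusted p = 0.0351). This difference may include signal not above background. No probe carried the symbol of Mki67 or Top2a, which are common markers of proliferating cells, nor of Cdk2, Ccnd3, Rrm1, Tk1, Birc5, Spc24 or Pttg1. The filter left out 11 genes, each detected on 1 to 4 of the 33 arrays. Cenpa was detected on 4 arrays, Cdc6, Bub1b, Cenpf and Kif2c on 2 each, and Ccnb1, Ccnd2, Melk, Mad2l1, Nusap1 and Cdca3 on 1 each.

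Vehicle/ACS replicate 2 stood above the other vehicle/ACS arrays at 7 dps. Averaged over the 38 genes, log2 intensity was between 5.95 and 6.05 on the no sponge arrays and between 6.54 and 7.19 on the vehicle/ACS arrays, with replicate 2 the highest. Without that array 18 of the 38 genes were higher than in no sponge rats, and of the named genes that passed with it, Pcna was the only one that no longer did. Cdk1 was then higher by 1.62 on the log2 scale (limma adjusted p = 0.000844).

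**Figure D2:**
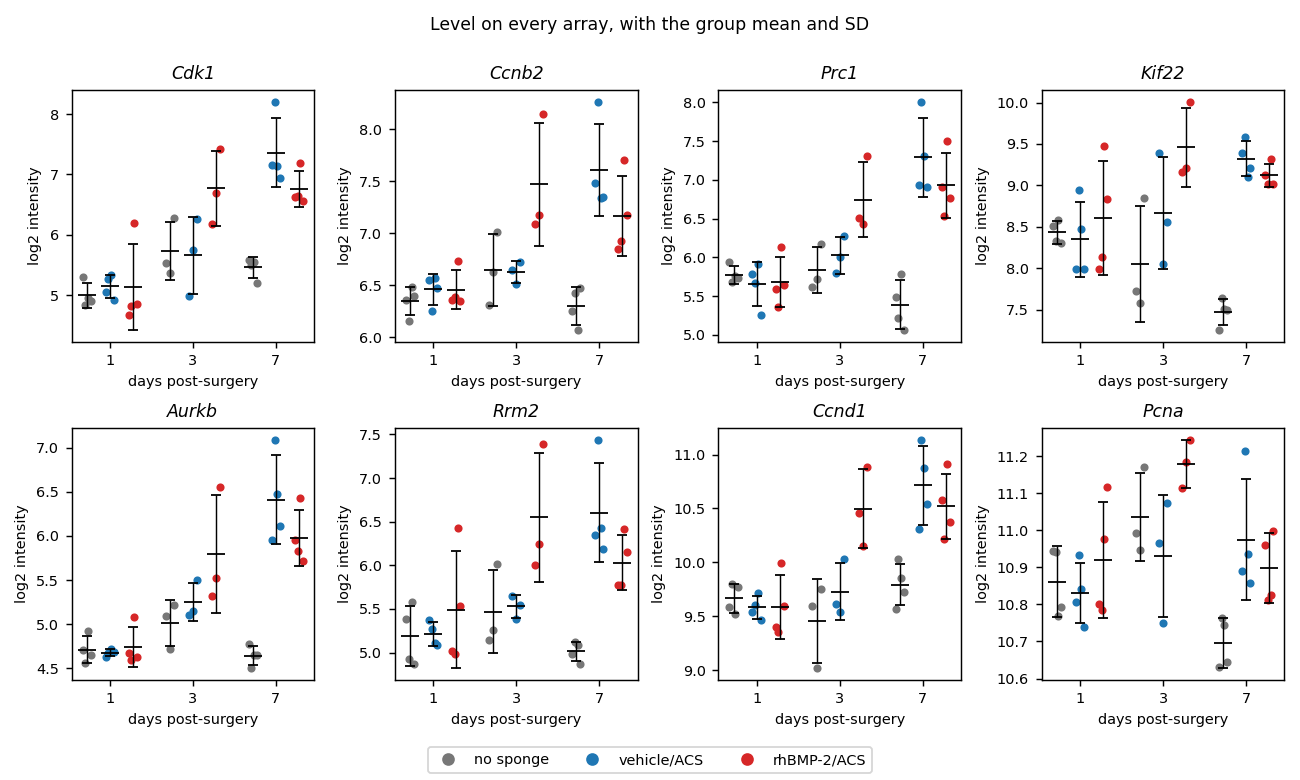
Log2 intensity of 8 named genes on every array (points), by treatment (colour) and days post-surgery (horizontal axis), with the mean and SD of each group (lines). At 7 dps the no sponge points lie below all vehicle/ACS and rhBMP-2/ACS points for Cdk1, whose lowest implanted array is at 6.55 and highest no sponge array at 5.57, and at 3 dps the highest rhBMP-2/ACS point is replicate 3 in all 8 panels.

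rhBMP-2/ACS rats at 7 dps were set against the same no sponge arrays. Of the 38 genes 13 were higher (34.2%), beside 2.59% of all kept probes that were higher and 1.04% that were lower, and the median log2 difference was 0.40. Among the 18 genes detected in every group 5 were higher, beside 2.57% of such probes, and in the fit of all probes 12 of 49 were, beside 1.21%. With the t statistic from the compared arrays alone 11 passed at the methods' limits, beside 1.76% of kept probes. After adjustment 1 passed, beside 0.191%. Groups did not overlap for 18 genes with rhBMP-2/ACS higher and for 1 with it lower, beside 6.23% and 6.06% of kept probes. By role, 4 of 7 mitotic kinases and cyclins, 4 of 9 spindle and cytokinesis genes, 1 of 9 replication genes and 0 of 4 kinetochore genes passed. In the same order 1, 6, 6 and 2 genes were detected in every group, so that the filter did not act alike on the roles.

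Kif22 had log2 intensities of 9.12, 9.01, 9.32 and 9.02 on the rhBMP-2/ACS arrays at 7 dps, all above every no sponge array, a difference of 3.13-fold (limma adjusted p = 0.000669). Prc1, at 6.91, 6.53, 7.51 and 6.77, was 2.91-fold higher than without a sponge (limma adjusted p = 0.000109). Cdk1, at 6.62, 6.64, 7.19 and 6.55, was 2.45-fold higher (limma adjusted p = 0.0105). These 3 genes were thus separate from the no sponge group with either implant. Aurkb, at 5.95, 5.82, 6.43 and 5.71, was at least 1.98-fold higher than in the no sponge group, where it was not detected (limma adjusted p = 0.00021). Ccna2, at 5.91, 5.59, 5.86 and 5.50, was at least 1.65-fold higher on the same terms (limma adjusted p = 0.0063).

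Of the remaining named genes, 7 passed and 5 did not between rhBMP-2/ACS and no sponge rats at 7 dps. Rrm2 was 2.02-fold higher (adjusted p = 0.0391), Ccnb2 1.81-fold (adjusted p = 0.0139), Kif20a 1.78-fold (adjusted p = 0.0129), Ccnd1 by 0.73 on the log2 scale (adjusted p = 0.0162), Ube2c 1.64-fold (adjusted p = 0.015), Kif23 1.57-fold (adjusted p = 0.0198) and Cdkn3 1.57-fold (adjusted p = 0.0098), all by limma. Cdc20 (1.57-fold, adjusted p = 0.0535), Tpx2 (1.49-fold, adjusted p = 0.0975), Pcna (1.15-fold, adjusted p = 0.177), Mcm2 (1.23-fold, adjusted p = 0.331) and Cdca8 (1.08-fold, adjusted p = 0.724) did not pass. Of the genes outside the naming rule, Mcm3 alone passed (log2 difference 0.82, limma adjusted p = 0.00417). The no sponge values of Kif23, Rrm2, Ube2c and Mcm3 may include signal not above background, as in the comparison with vehicle/ACS. The count fell to 5 without rhBMP-2/ACS replicate 3, in which the mean of the 38 genes was the highest of its group (6.73, the others 6.36 to 6.44). That array also stood above its group in the mean of the granulocyte (7.15, the others 6.04 to 6.41), erythroid (7.83, the others 7.20 to 7.30) and muscle markers (7.07, the others 5.94 to 6.05), and the part of these in the result was not tested.

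The direct comparison of rhBMP-2/ACS with vehicle/ACS at 7 dps gave 0 genes past the threshold by limma, as for all kept probes (0%). All 38 estimates were below 0, that is lower with rhBMP-2/ACS, with a median of -0.22, beside 0.01 over all kept probes, and a range from -0.61 (Cdk1) to -0.03, and 13 had an unadjusted p under 0.05, beside 6.46% of kept probes in either direction. The lowest adjusted p was 0.508. The genes share arrays, so that 38 estimates of 1 sign are not 38 observations. Cdk1 differed by -0.61 ± 0.30 (SE) and Prc1 by -0.36 ± 0.23 on the log2 scale, and the rhBMP-2/ACS and vehicle/ACS arrays overlapped for each of the 38 genes, beside 1.59% and 1.76% of kept probes that separated upward and downward.

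**Figure D3:**
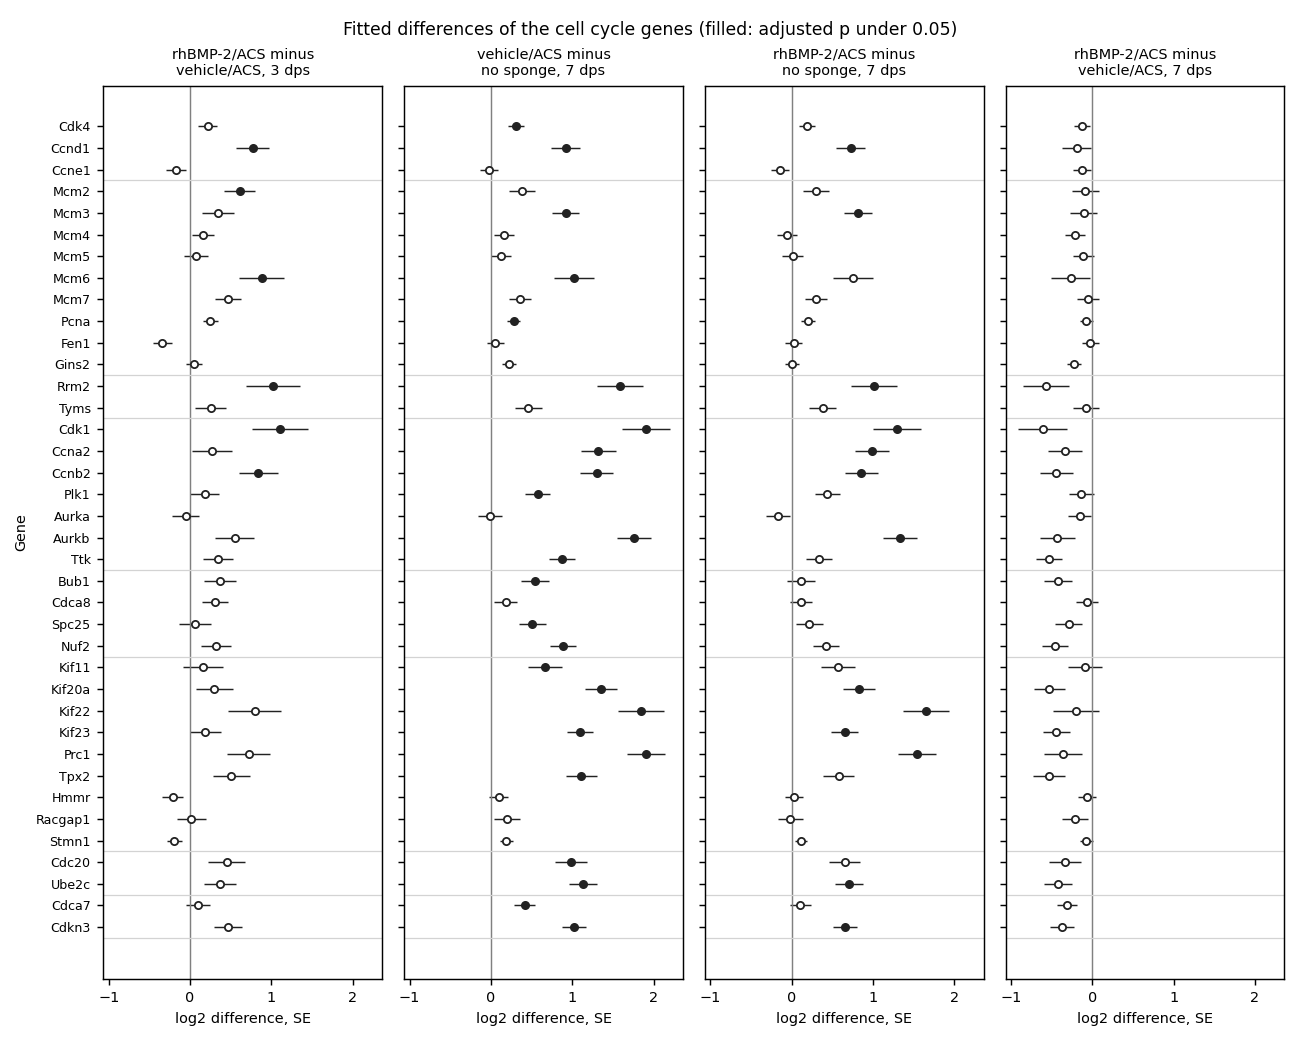
Fitted log2 differences of the 38 genes (rows, in the order of their roles, with lines between roles) in 4 comparisons (panels), with their standard errors and filled points where the limma adjusted p was under 0.05. Filled points number 6, 25, 13 and 0 from left to right, and in the right panel every point lies below 0. Points are drawn from the measured values, also for genes with a group not above background. Aurkb, Ccna2, Plk1, Ttk and Tyms, on the no sponge arrays at 7 dps, are among these, and their points are not sizes of change.

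At 3 dps most estimates between the implants had the other sign, with 33 of the 38 above 0. The count of genes past the threshold was 0 without rhBMP-2/ACS replicate 3. Of the 38 genes 6 were higher in rhBMP-2/ACS than in vehicle/ACS rats (15.8%), beside 5.98% of all kept probes that were higher and 4.56% that were lower, with a median log2 difference of 0.30. The 6 genes were Ccnd1, Mcm2, Mcm6, Rrm2, Cdk1 and Ccnb2, that is 1 of 3 G1 genes, 2 of 9 replication genes, 1 of 2 nucleotide supply genes and 2 of 7 mitotic kinases and cyclins. None of the 9 spindle and cytokinesis genes or of the 4 kinetochore genes passed. Of the 18 genes detected in every group 4 were higher, beside 6.35% of such probes, and in the fit of all probes 3 of 49 were higher, beside 3.07%. The arrays of both implants did not overlap for 10 genes with rhBMP-2/ACS higher and for 2 with it lower, beside 10.6% and 12.2% of kept probes.

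Ccnd1 had log2 intensities of 9.61, 9.54 and 10.03 on the vehicle/ACS arrays at 3 dps and of 10.46, 10.15 and 10.88 on the rhBMP-2/ACS arrays. The groups did not overlap, and the difference was 1.70-fold (log2 0.77 ± 0.21 SE, limma adjusted p = 0.0155). Ccnb2 had values of 6.65, 6.51 and 6.73 against 7.09, 7.17 and 8.15, a difference of 1.79-fold without overlap (limma adjusted p = 0.0214). In both genes replicate 3 was the highest rhBMP-2/ACS array.

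Rrm2 had log2 intensities of 5.65, 5.39 and 5.55 with vehicle/ACS and of 6.01, 6.25 and 7.39 with rhBMP-2/ACS at 3 dps, a difference of 2.03-fold without overlap (limma adjusted p = 0.0424). Cdk1 had values of 4.99, 5.74 and 6.25 against 6.18, 6.70 and 7.43, which overlapped, and was 2.15-fold higher (log2 1.11 ± 0.35 SE, limma adjusted p = 0.0367). Mcm2 had values of 5.74, 6.34 and 5.91 against 6.42, 6.34 and 7.06, a difference of 1.53-fold (limma adjusted p = 0.0333). The lowest Mcm2 value with rhBMP-2/ACS, in replicate 2, lay within the vehicle/ACS range. Mcm6 was higher by 0.88 on the log2 scale (limma adjusted p = 0.0413).

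Prc1 (5.79, 6.01 and 6.27 with vehicle/ACS against 6.50, 6.43 and 7.31 with rhBMP-2/ACS) and Kif22 (9.39, 8.05 and 8.56 against 9.16, 9.21 and 10.01) did not pass at 3 dps, with limma adjusted p-values of 0.0788 and 0.118. The Prc1 groups were separate and the Kif22 groups were not, since vehicle/ACS replicate 1 was as high as the rhBMP-2/ACS arrays. Pcna had values of 10.97, 10.75 and 11.07 against 11.11, 11.18 and 11.24 (log2 difference 0.25 ± 0.09 SE, adjusted p = 0.0852), and Cdkn3 of 6.26, 6.23 and 6.19 against 6.47, 6.52 and 7.07 (0.46 ± 0.17 SE, adjusted p = 0.081), both separate and both short of the threshold by limma. Cdca8 (log2 difference 0.30, adjusted p = 0.224) and Cdc20 (0.45, adjusted p = 0.2) were the genes of their roles with the lowest p and did not pass.

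The number of genes past the threshold between the implants at 3 dps depended on rhBMP-2/ACS replicate 3. Without it 0 of the 38 genes passed, the log2 difference of Cdk1 went from 1.11 to 0.78 (limma adjusted p = 0.285) and that of Ccnb2 from 0.84 to 0.50 (adjusted p = 0.27). Without vehicle/ACS replicate 2, 1 gene passed. The count was 0 when only the compared groups were fitted, 0 with weighted arrays and 0 with the adjusted t statistic. Unadjusted, the t statistic gave 2 at the methods' limits, beside 2.63% of kept probes. The mean of the 38 genes was highest in replicate 3 in each treatment at 3 dps (6.19 without a sponge, 6.22 with vehicle/ACS and 6.75 with rhBMP-2/ACS). Over all kept probes the replicate 3 arrays of the 3 treatments deviated from their group means with correlations of 0.149 to 0.204, and with the replicate number as a block 7 of the 38 genes passed.

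Against no sponge rats, rhBMP-2/ACS rats had 8 higher genes at 3 dps (21.1%), beside 4.21% of all kept probes that were higher and 3.33% that were lower, with a median log2 difference of 0.38. Of the 18 genes detected in every group 5 were higher, beside 4.41%, and in the fit of all probes 6 of 49, beside 1.96%. Groups did not overlap for 15 genes with rhBMP-2/ACS higher and for 1 with it lower, beside 9.88% and 12.4% of kept probes. The 8 genes were Kif22 (2.66-fold, adjusted p = 0.00868), Rrm2 (2.11-fold, adjusted p = 0.0405), Ccnd1 (2.06-fold, adjusted p = 0.00268), Prc1 (1.88-fold, adjusted p = 0.0336), Kif20a (1.87-fold, adjusted p = 0.0146), Ccnb2 (1.76-fold, adjusted p = 0.0314), Cdkn3 (1.75-fold, adjusted p = 0.00439) and Aurkb (1.72-fold, adjusted p = 0.0426) by limma. The count was 1 without rhBMP-2/ACS replicate 3, 3 without no sponge replicate 1 and 2 without no sponge replicate 2. It was 0 when only the compared groups were fitted, 3 with weighted arrays and 0 with the adjusted t statistic. Vehicle/ACS rats, set against the same no sponge arrays, had 0 genes past the threshold by limma at 3 dps, beside 0.166% of kept probes higher and 0.175% lower, and 4 genes had an unadjusted p under 0.05, beside 13.7% of kept probes. The median log2 difference was 0.05, and groups were separate for 3 genes upward and 2 downward, beside 7.16% and 7.79% of kept probes.

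The change of these effects between days was tested directly. The effect of vehicle/ACS against no sponge was larger at 7 than at 3 dps for 10 genes and smaller for 0, beside 2.86% and 0.89% of kept probes. Of these, Cdk1 differed by 1.97 ± 0.46 (SE, adjusted p = 0.0124), Prc1 by 1.72 ± 0.35 (adjusted p = 0.00499), Rrm2 by 1.53 ± 0.43 (adjusted p = 0.0424) and Ccnb2 by 1.32 ± 0.31 (adjusted p = 0.0144) on the log2 scale by limma. Aurkb, Ccna2, Ube2c, Mcm3, Ttk and Gins2 also passed, but at least 1 of the 4 groups behind each was not detected on any array, so that their sizes are not given as measured. The effect of rhBMP-2/ACS against vehicle/ACS was smaller at 7 than at 3 dps for 8 genes and larger for 0, beside 4.56% and 2.34% of kept probes. Here Cdk1 differed by -1.72 ± 0.46 (adjusted p = 0.0214), Rrm2 by -1.59 ± 0.43 (adjusted p = 0.0247), Ccnb2 by -1.28 ± 0.31 (adjusted p = 0.0128) and Ccnd1 by -0.96 ± 0.27 (adjusted p = 0.0291). This count moved with single arrays. It was 0 without rhBMP-2/ACS replicate 3, 3 without vehicle/ACS replicate 1 and 2 without vehicle/ACS replicate 2 at 3 dps. Of the 7 dps arrays, leaving out rhBMP-2/ACS replicates 1, 2, 3 and 4 gave 5, 3, 13 and 5 genes in turn, and leaving out vehicle/ACS replicates 1 and 2 gave 13 and 1. The count of 10 for vehicle/ACS against no sponge was 4 without no sponge replicate 3 at 3 dps. Between 1 and 3 dps 0 genes changed in either effect by limma, beside 0.948% and 0.216% of kept probes with a larger and a smaller effect of rhBMP-2/ACS at 3 dps and 0% for vehicle/ACS, and 4 (rhBMP-2/ACS against vehicle/ACS) and 2 (vehicle/ACS against no sponge) had an unadjusted p under 0.05, beside 15.6% and 8.55% of kept probes. The vehicle/ACS arrays of both days enter the change from 3 to 7 dps of either effect, with opposite sign.

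The day with the highest group mean differed by treatment. In vehicle/ACS rats 35 of the 38 genes had their highest mean at 7 dps, 2 at 3 dps and 1 at 1 dps. In rhBMP-2/ACS rats 18 had it at 7 dps, 16 at 3 dps and 4 at 1 dps, and in no sponge rats 14, 13 and 11. The peak days of all kept probes were not counted, and day cannot be told apart from array processing. These counts therefore only describe the 38 genes. Cdk1 means at 1, 3 and 7 dps were 4.99 ± 0.20, 5.72 ± 0.48 and 5.46 ± 0.17 (SD, n = 4, 3 and 4) without a sponge. They were 5.15 ± 0.19, 5.66 ± 0.64 and 7.36 ± 0.57 with vehicle/ACS, and 5.13 ± 0.71, 6.77 ± 0.63 and 6.75 ± 0.30 with rhBMP-2/ACS. The rhBMP-2/ACS mean of Cdk1 was thus about level from 3 to 7 dps, while the vehicle/ACS mean was highest at 7 dps.

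Days were also compared within each treatment. From 3 to 7 dps 25 genes rose and 2 fell in vehicle/ACS rats (beside 21.3% and 19.7% of kept probes), 5 rose and 3 fell in rhBMP-2/ACS rats (22.5% and 18.4%), and 1 rose and 2 fell in no sponge rats (15.5% and 14%), by limma. From 1 to 3 dps 19 rose and 1 fell in rhBMP-2/ACS rats (16.1% and 17.1%), 5 rose and 1 fell in vehicle/ACS rats (18.8% and 17.9%), and 3 rose and 2 fell in no sponge rats (11.7% and 10.5%). From 1 to 7 dps 29 rose and 0 fell in vehicle/ACS rats (23.8% and 23.6%), 17 rose and 0 fell in rhBMP-2/ACS rats (21.6% and 20.8%), and 3 rose and 3 fell in no sponge rats (26.2% and 22.3%). Over the mean of the treatments, 19 genes rose and 3 fell from 1 to 3 dps (27.4% and 26.3%), 21 rose and 3 fell from 3 to 7 dps (33% and 25.7%), and 26 rose and 1 fell from 1 to 7 dps (36.1% and 32.4%). Day also went with the arrays' brightness, whose median raw intensities lay between 66.7 and 97.5 on day 1, between 111.3 and 143.5 on day 3 and between 89.1 and 103.6 on day 7, so that day and array processing cannot be told apart. Treatments were compared within a day.

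Other genes of dividing cells, 47 listed apart from the 58 and 20 measured, moved in part with them at 7 dps. There 6 of the 20 were higher and 1 was lower in vehicle/ACS than in no sponge rats, beside 6.22% and 3.96% of kept probes. Cks2, a partner of Cdk1, was 2.73-fold higher (limma adjusted p = 8.13e-05), and Hmgb2, a chromatin protein, 2.31-fold (adjusted p = 0.000466). Pbk, a mitotic kinase, was at least 1.87-fold higher (adjusted p = 0.000117). At 3 dps 1 of the 20, Hmgb2, was higher in rhBMP-2/ACS than in vehicle/ACS rats (1.78-fold, adjusted p = 0.0345). That count is near the share of all kept probes that were higher (5.98%). None of 7 measured E2F and Rb family genes, which control entry into S phase, passed in the comparison of vehicle/ACS with no sponge at 7 dps. Of 12 measured cyclin-dependent kinase inhibitors and p53 targets 4 were higher and 0 lower in that comparison, among them the stress-induced growth arrest genes Gadd45a (2.09-fold, adjusted p = 0.000139) and Gadd45g (1.52-fold, adjusted p = 0.0327) and the anti-proliferative gene Btg1 (1.36-fold, adjusted p = 0.00364).

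Markers of cell types moved in the same comparisons. At 7 dps 7 of 12 measured macrophage and monocyte markers and 10 of 12 fibroblast and matrix markers were higher in vehicle/ACS than in no sponge rats. In either list 0 were lower. Of all kept probes 6.22% were higher and 3.96% lower. The mean macrophage level was between 6.83 and 7.02 on the vehicle/ACS arrays and between 5.96 and 6.14 on the no sponge arrays, and the mean fibroblast level between 9.87 and 10.45 and between 8.67 and 9.01. C1qb, a complement subunit made by macrophages, was 3.34-fold higher (limma adjusted p = 1.90e-05), and Col5a2, a fibrillar collagen, 2.49-fold (adjusted p = 9.90e-07). Of 9 glial markers, Gfap of reactive glia was higher (3.38-fold, adjusted p = 0.000546) and Fabp7 of satellite glia lower (2.19-fold, adjusted p = 0.00241). Of 12 sensory neuron markers 2 were lower, with a list mean between 12.17 and 12.23 against 12.28 to 12.33, and of 5 lymphocyte markers 2 were higher. None of the measured neutrophil, erythroid, endothelial or muscle markers passed.

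At 3 dps 7 of 12 macrophage, 10 of 12 fibroblast and 4 of 7 endothelial markers were higher in rhBMP-2/ACS than in vehicle/ACS rats, beside 5.98% of kept probes. Of 12 sensory neuron markers 4 were lower, beside 4.56% of kept probes. The T cell marker Cd3g (3.13-fold, limma adjusted p = 0.000496), Gfap (4.55-fold, adjusted p = 0.000553) and Des of muscle (1.81-fold, adjusted p = 0.0461) were higher and Myf5 of muscle precursors was lower, while none of the measured neutrophil or erythroid markers passed. The mean macrophage level was between 6.70 and 7.41 with rhBMP-2/ACS and between 5.80 and 6.47 with vehicle/ACS, and the mean fibroblast level between 9.46 and 10.57 and between 8.46 and 9.50, so that the macrophage means were separate and the fibroblast means overlapped. For rhBMP-2/ACS against no sponge at 7 dps, 3 macrophage and 5 fibroblast markers were higher, as were the granulocyte genes S100a8 (4.69-fold, limma adjusted p = 0.0119) and Ngp (2.57-fold, adjusted p = 0.0134), Gfap (2.43-fold, adjusted p = 0.022) and Tnnt3 of muscle (1.85-fold, adjusted p = 0.024). Fabp7 was lower (2.44-fold, adjusted p = 0.00179), and none of the lymphocyte, erythroid, endothelial or sensory neuron markers passed. In that comparison 2.59% of all kept probes were higher and 1.04% lower. The part of these cell types in the levels of the cell cycle genes was not tested.

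**Figure D4:**
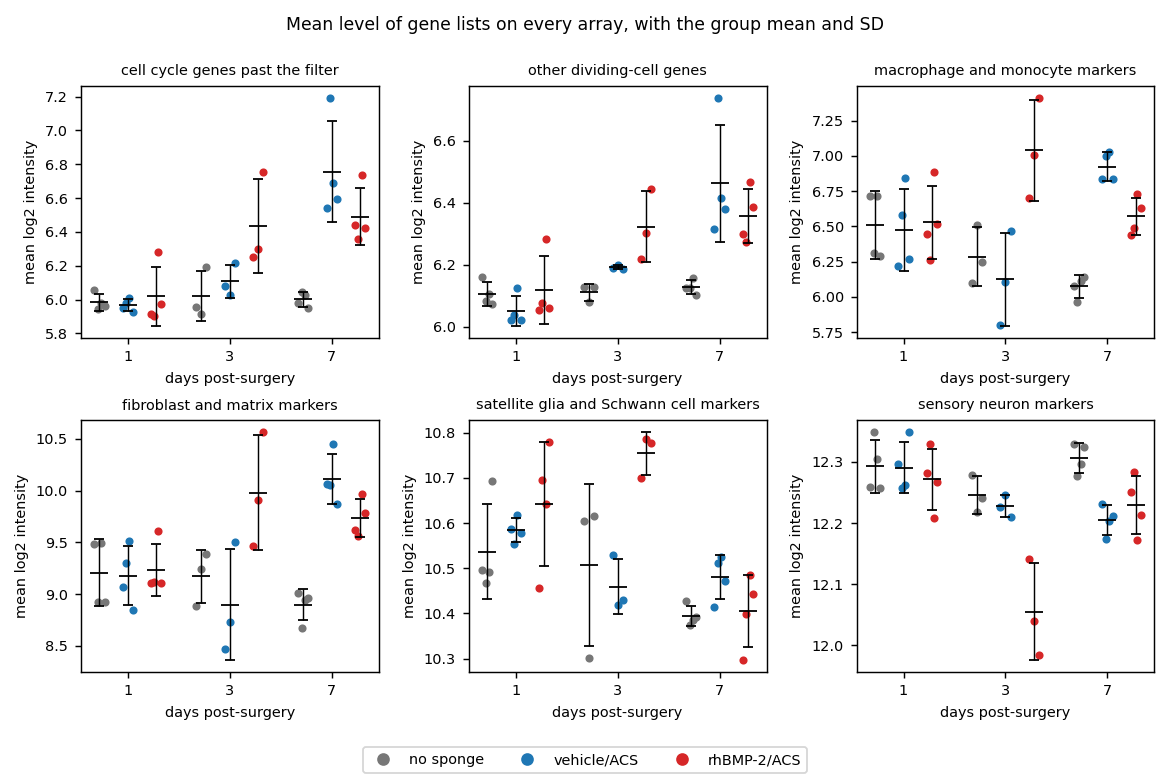
Mean log2 intensity of 6 gene lists on every array (points), by treatment (colour) and days post-surgery, with the mean and SD of each group (lines). Every list but that of sensory neurons has its highest mean of the day in rhBMP-2/ACS rats at 3 dps and in vehicle/ACS rats at 7 dps. For the glial list the lead at 7 dps is small (10.48, against 10.41 with rhBMP-2/ACS and 10.39 without a sponge). The vehicle/ACS array with the highest cell cycle mean at 7 dps (7.19) is not set apart in the macrophage list, where the 4 arrays lie between 6.83 and 7.02. In the fibroblast list these arrays lie between 9.87 and 10.45, and the part of either cell type in the cell cycle levels was not tested.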

How the data were processed

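The authors scanned the arrays and deposited each probe's mean bead intensity, not normalized, with its detection p-value against negative control beads, as GenomeStudio gave them. They also deposited intensities after offset background subtraction and quantile normalization. The version of GenomeStudio was not given in the sources used here. Intensities of all 33 arrays were background corrected from the detection p-values and quantile normalized by neqc (limma 3.58.1, R 4.3.3, offset 16) and taken to log2, and 9 group means were fitted with lmFit and eBayes with a trend. Members were matched by the platform's gene symbol. Of 3 genes with 2 probes, each had 1 probe past the filter. The members, their roles and the other lists were chosen with earlier results of these data known. Values of every array were given for the 12 members past the threshold with the largest fold change in any comparison of treatments within a day, the member of each role with the lowest p between the implants at 3 dps, and Cdk1, Pcna and Ccnd1. Where a group was not detected on any array, its fold is a lower bound. Samples with the same replicate number did not deviate together throughout (correlations of -0.181 to 0.244 over 33 pairs, 6 above 0.1, of which 3 join the replicate 3 arrays at 3 dps), so that no pairing was used. Alternatives were the authors' normalized values, equal medians, an offset of 50, no filter, the compared groups alone, array weights, a replicate block and each array left out. A Welch t statistic on the authors' normalized values, at the study's limits or adjusted, was a further alternative. The number of arrays limits the precision, and 10142 to 11674 probes were detected per array. The scripts were tested on simulated data.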

Additional observations from a re-analysis of the deposited data

Results flagged for a closer look

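In 8 of the 108 groups of 4 arrays examined, for the named genes and the mean of the 38 genes, 1 array stood far from the other 3, and chance alone flags about 1 in 20 such groups. At 7 dps vehicle/ACS replicate 2 was far above its group for Cdk1 (log2 intensity 8.21, next 7.15), Ccnb2 (8.265, next 7.48) and Tpx2 (7.413, next 6.60). rhBMP-2/ACS replicate 3 was far above its group for Cdk1 at 7 dps (7.195, next 6.64), and rhBMP-2/ACS replicate 3 at 1 dps for Cdk1 (6.195, next 4.85) and Ccnb2 (6.733, next 6.39). rhBMP-2/ACS replicate 2 at 1 dps was low for Cdkn3 (5.822), and no sponge replicate 3 at 7 dps was high for Cdca8 (6.525).

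Some effects of treatment differed between 3 and 7 dps by limma's test of the difference itself. rhBMP-2/ACS against vehicle/ACS was lower at 7 than at 3 dps for Cdk1 (log2 -1.718), Rrm2 (-1.59), Ccnb2 (-1.283), Tpx2 (-1.043), Ccnd1 (-0.9625), Ttk (-0.8767), Cdkn3 (-0.8336) and Nuf2 (-0.7805), and vehicle/ACS against no sponge was higher at 7 than at 3 dps for Cdk1 (log2 1.969), Prc1 (1.717), Rrm2 (1.529), Aurkb (1.525), Ccnb2 (1.321), Ube2c (1.279), Ccna2 (1.205), Mcm3 (1.092), Ttk (0.9112) and Gins2 (0.5336). Ttk, Nuf2, Mcm3 and Gins2 fall outside the rule for named genes and were added after their values were seen. The vehicle/ACS arrays of both days enter both tests, with opposite sign. Against no sponge, Aurkb, Ube2c, Ccna2, Mcm3, Ttk and Gins2 had at least 1 of the 4 groups detected on no array, as had Ttk between the implants, so that their values include signal not above background and are not sizes of change.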

How the results depend on the processing

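Counts below are genes past the threshold. For vehicle/ACS against no sponge at 7 dps (25), the count ran from 18 to 25 when single arrays were left out. It was 1 with the Welch t statistic after adjustment and 10 over the 18 genes detected in every group. For rhBMP-2/ACS against no sponge at 7 dps (13), it ran from 5 to 15 and was 1 and 5 under the same alternatives. Between the implants at 3 dps (6), it ran from 0, without rhBMP-2/ACS replicate 3, to 9. It was 3 without the detection filter, 0 with the compared groups alone and 0 with weighted arrays. With the Welch t statistic it was 2 at the study's own fold and p limits, and 0 after adjustment. For rhBMP-2/ACS against no sponge at 3 dps (8), it ran from 1 to 10. It was 0 with the compared groups alone, 3 with weighted arrays, 0 with the Welch t statistic adjusted and 5 over the genes detected in every group. For the change of the effect from 3 to 7 dps, it ran from 0 to 13 (main 8) for rhBMP-2/ACS against vehicle/ACS, with 0 in the compared groups alone, and from 4 to 15 (main 10) for vehicle/ACS against no sponge, lowest without no sponge replicate 3 at 3 dps. Between days, it ran from 20 to 23 (3 against 1 dps, main 22), from 19 to 27 (7 against 3 dps, main 24) and from 27 to 28 (7 against 1 dps, main 27). Within 1 treatment these, with rises and falls added, were 6 (vehicle/ACS) and 5 (no sponge) for 3 against 1 dps, 8 (rhBMP-2/ACS) and 3 (no sponge) for 7 against 3 dps, and 17 (rhBMP-2/ACS) and 6 (no sponge) for 7 against 1 dps, where vehicle/ACS gave 29. All counts of 0 at 1 dps, for vehicle/ACS against no sponge at 3 dps, between the implants at 7 dps and for the changes from 1 to 3 dps stayed at 0 to 0 with each array left out. Without rhBMP-2/ACS replicate 3 at 3 dps, the log2 difference of Ccna2 turned to -0.15 against vehicle/ACS and -0.028 against no sponge and that of Ube2c to -0.043 against no sponge (highest with other arrays left out 0.56, 0.68 and 0.42), none past the threshold before or after. With a replicate block the counts were 24, 14, 7 and 9 in the order of the first 4 comparisons and 12 and 12 for the changes, and the numbers are shared labels only. The counts over genes detected in every group and within 1 treatment were added after seeing the data. The mean of several probes per gene gave no separate value, since each gene had 1 kept probe. The cause of these changes was not tested. With 3 arrays per group at 3 dps, and members near background, modest differences may go undetected.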
